A study of Mus musculus with 4 samples.

Results

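The genes described here encode subunits of AP-1, a transcription factor assembled from pairs of basic leucine zipper proteins. Of 55401 genes in the deposited table, 10 were taken by symbol, namely Fos, Fosb, Fosl1 and Fosl2 of the Fos family, Jun, Junb and Jund of the Jun family, and the relatives Batf, Batf3 and Atf3. The family was chosen by the counts of these same libraries, in which Fos and Fosb were lower with daidzein, so the differences between the treatments are given for these 10 genes as a description and not as independent evidence.

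RNA was sequenced from cells labelled as female germline stem cells, cultured from the ovary of C57BL/6 mice. The daidzein group (2 libraries) received daidzein, an isoflavone found in soybeans and known as a ligand of oestrogen receptors, and the DMSO group (2 libraries) received the solvent. Both groups grew in the same serum-containing medium with leukemia inhibitory factor and glial cell line-derived, fibroblast and epidermal growth factors, and both carry the label "normal" for condition. How much daidzein was used and for how long is not stated in the sources at hand, nor whether replicates came from separate cultures. Any p-value therefore measures only the spread between these libraries, which may be technical.

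Library totals were 17192077 and 18537134 counts with daidzein and 16230400 and 17119625 with DMSO. The labelled cell type was not borne out by its markers. Of 8 germ cell markers, 7 had fewer than 10 reads in every library, with Pou5f1 and Dppa3 at 0, and the remaining Zbtb16 is also made by blood cells. The leukocyte gene Ptprc stood at 161 and 172 CPM (counts scaled to the library total) with daidzein and at 160 and 166 CPM with DMSO. Of 8 mast cell markers Kit and Cpa3 were abundant, while 5 had fewer than 10 reads in every library and Fcer1a, Tpsb2 and Mcpt4 had none. Reads of mitochondrial genes made up 1.80% and 1.81% of counts with daidzein and 1.57% and 1.73% with DMSO. The mast cell list summed to 1394 and 1395 CPM with daidzein and to 1368 and 1365 CPM with DMSO. The macrophage list, in which Adgre1 was high, Csf1r had at most 2 reads and Itgam none, summed to 120 and 129 CPM with daidzein and to 134 and 135 CPM with DMSO. The germ cell list summed to 4.07 and 4.64 CPM with daidzein and to 4.62 and 5.67 CPM with DMSO. Of 2 endothelial markers Cdh5 had no reads and Pecam1 stood at 2.44 and 2.27 CPM with daidzein and at 1.91 and 1.81 CPM with DMSO. The macrophage sum was lower with daidzein without overlap. The mitochondrial share, the mast cell sum, Pecam1 and the epithelial list, which had at most 6 reads of any marker, were higher without overlap. The 2 abundant genes of the mast cell list did not move together. Cpa3 stood at 771.8 and 732.7 CPM with daidzein and at 712 and 703.8 CPM with DMSO. Kit overlapped, at 617.7 and 658.4 CPM with daidzein and at 651.5 and 657.9 CPM with DMSO. Among all tested genes 15.2% were lower and 14.5% higher without overlap. No marker was called, and the part of the marker and mitochondrial differences in the results was not tested. In bulk RNA, fewer cells of a type and less RNA per cell cannot be told apart.

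Fos proteins cannot pair with themselves and bind DNA only with a partner, usually a Jun protein, whereas Jun proteins also pair with each other. Fos, Fosb, Jun, Junb and Atf3 are immediate early genes, transcribed within minutes of a growth signal or stress by transcription factors already in the cell, and their messages are short-lived. Jund is made more steadily. Fosl1 and Fosl2, also called Fra-1 and Fra-2, lack the strong activation domain of Fos. Batf and Batf3 work in blood and immune cells, where they pair with Jun proteins and lack an activation domain of their own.

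The promoters are shown for Fos, Fosb and Junb, the 3 of the 9 tested members with the lowest folds of daidzein over DMSO. Each line gives the 250 bases before the transcription start of RefSeq on GRCm38.p6, read on the gene's own strand, with capitals for TGACG, the core of the cAMP response element, and for the TATA box TATAAA. The Fos window is chr12:85473640-85473889 on the plus strand, the Fosb window chr7:19310046-19310295 on the minus strand and the Junb window chr8:84978749-84978998 on the minus strand.
Fos: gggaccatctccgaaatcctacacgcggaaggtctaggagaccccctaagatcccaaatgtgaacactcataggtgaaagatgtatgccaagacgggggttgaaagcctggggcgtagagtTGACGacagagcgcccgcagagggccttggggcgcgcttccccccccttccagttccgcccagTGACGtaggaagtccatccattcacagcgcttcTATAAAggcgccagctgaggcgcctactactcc
Fosb: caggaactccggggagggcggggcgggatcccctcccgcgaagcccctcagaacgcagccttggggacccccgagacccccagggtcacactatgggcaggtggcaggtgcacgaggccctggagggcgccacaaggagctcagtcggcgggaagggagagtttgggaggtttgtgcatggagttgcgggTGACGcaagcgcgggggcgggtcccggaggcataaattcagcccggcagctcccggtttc
Junb: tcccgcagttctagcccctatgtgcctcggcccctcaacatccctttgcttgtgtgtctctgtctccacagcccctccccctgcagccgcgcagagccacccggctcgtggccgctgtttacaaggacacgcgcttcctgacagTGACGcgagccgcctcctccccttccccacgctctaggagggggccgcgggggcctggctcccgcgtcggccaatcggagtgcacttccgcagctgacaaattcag

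The 3 promoters share TGACG on the gene's own strand. The match nearest the RefSeq start began 66 bases before it in Fos, 60 bases before it in Fosb and 106 bases before it in Junb, and Fos had another at 129 bases. RefSeq windows of 250 bases before to 50 after a start were at hand for 9 of the 10 genes, all but Fosl1. TGACG, searched on both strands, was in 5 of these 9, the others being Batf and Atf3, and in 20.8% of 32851 windows of all genes. The GC content of these windows was 58.7% in Fos, 68.3% in Fosb, 65.3% in Junb, 64.7% in Atf3 and 49.7% in Batf. The median over all windows was 52.7%, and the share of 20.8% was not matched for GC content. TATAAA was in the windows of Fos and Junb and in 13.6% of all windows. In Junb it began at the RefSeq start, which lay 30 bases upstream of the deposited start. The CCAAT box was in the windows of Jun, Junb and Atf3 and in 37.4% of all. The palindromic cAMP response element, which contains TGACG, was in none of the 9 windows and in 1.79% of all, the AP-1 site TGANTCA in none and in 7.81%, and the CArG box, bound by serum response factor, in none and in 1.63%. No match says only that these letters are not in the window. The RefSeq start lay 1210 bases upstream of the deposited start for Jund and downstream of it, beyond the reach of the window, for Atf3, Fosl2 and Batf3, so the windows of these 4 genes do not hold the deposited starts.

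All 10 genes are annotated as protein-coding. Jun, Junb and Jund have a coding transcript of 1 exon, while Fos and Fosl2 have 4 exons, Batf and Batf3 have 3, and Fosb has 3 to 5 over 6 coding transcripts. In their longest annotated 3′ untranslated region Fos had 4 copies of the pentamer ATTTA, the core of elements that shorten the life of an mRNA, in 815 bases. That is 4.91 per kilobase, more than in 92.2% of 20674 genes. Junb had 4.12 per kilobase, Jun 3.24, Atf3 2.53, Jund 1.88, Fosl2 1.72 and Fosl1 1.57, against a median of 1.28 over all genes. Fosb had 1 copy in 2302 bases, or 0.434 per kilobase, below that median, and Batf and Batf3 had none. The 2 genes called lower with daidzein thus stood on opposite sides of the median in this feature.

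Levels can be compared between genes only per length, so the order of the subunits is given in FPKM, counts scaled to exonic length and to the library total, as the authors deposited them. Jund and Junb were the most abundant in every library. Jund stood at 64.1 and 64.3 FPKM with daidzein and at 76.9 and 64.9 with DMSO. Junb stood at 44.7 and 48.8 FPKM with daidzein and at 60.6 and 55.7 with DMSO. Jund placed 1038th and 1027th among all genes with daidzein and 848th and 1014th with DMSO.

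Batf and Fos came next and, in deposited FPKM, exchanged places between the treatments. Batf stood at 18.5 and 17.0 FPKM with daidzein and at 18.8 and 18.7 with DMSO. Fos stood at 11.8 and 13.3 FPKM with daidzein, below Batf, and at 26.9 and 19.5 with DMSO, above Batf. Fos placed 4380th and 4095th among all genes with daidzein and 2334th and 3043rd with DMSO. Over the 4 libraries the ranges of Batf and Fos overlapped, so their order over all libraries is not settled.

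Jun followed, between 5.79 and 8.93 FPKM, then Fosl2 between 3.60 and 3.93 FPKM. The ranges of Fosl1 (2.30 to 2.61 FPKM), Fosb (0.960 to 3.29 FPKM) and Batf3 (1.21 to 2.09 FPKM) met those of a neighbour. Atf3 was barely detected, at no more than 0.310 FPKM in any library. In all, 4 members had at least 10 FPKM in every library, 4 lay between 1 and 10 FPKM throughout and 1 was below 1 FPKM throughout. Fosb crossed 1 FPKM, being below it in daidzein replicate 1 only.

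The deposited length counts every exonic base of a gene, which for Fosb is 1.65 times its longest coding transcript and for Batf3 1.99 times. With the longest coding transcript as the length, Jund, Junb, Batf, Fos, Jun and Fosl2 held the first 6 places in the same order. Fosb then had a mean level of 3.21, Batf3 of 3.16 and Fosl1 of 2.65, so the order of these 3 depends on the length used. The exchange of Batf and Fos depends on it too. By transcript length Fos stood at 30.0 and 21.8 with DMSO and Batf at 27.6 and 27.5, so Fos was above Batf in DMSO replicate 1 only.

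**Figure D1:**
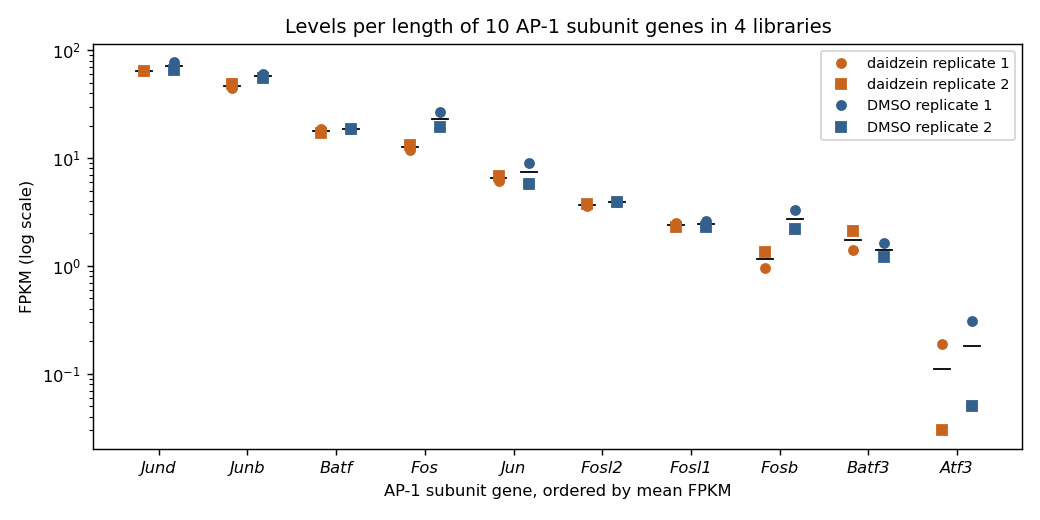
FPKM on a log axis of the 10 AP-1 subunit genes, ordered by their mean, with daidzein libraries to the left of DMSO libraries for each gene and a black line at each group mean. Jund and Junb lie at the top in every library, Atf3 lies at or below 0.310 FPKM, and Fos is below Batf with daidzein and above it with DMSO.

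Fos, the founding member of the family, lies on chromosome 12 at 85473890 to 85477273 (GRCm38, plus strand) and had 478 and 580 reads with daidzein and 1027 and 786 with DMSO. This is 27.8 and 31.3 CPM with daidzein and 63.3 and 45.9 CPM with DMSO, or 29.6 ± 2.46 against 54.6 ± 12.3 CPM (SD, n = 2 each). Both daidzein libraries lay below both DMSO libraries, and DMSO replicate 1 was well above DMSO replicate 2. The fold of daidzein over DMSO was 0.542, with a 95% interval of 0.457 to 0.643 from edgeR's quasi-likelihood fit over all genes.

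Fosb, the closest relative of Fos, lies on chromosome 7 at 19302696 to 19310051 (minus strand) and had the lowest fold of the 9 members tested. It had 103 and 157 reads with daidzein and 333 and 233 with DMSO, which is 5.99 and 8.47 CPM with daidzein and 20.5 and 13.6 CPM with DMSO, or 7.23 ± 1.75 against 17.1 ± 4.88 CPM (SD, n = 2 each). The libraries stood in the same order as for Fos, with daidzein replicate 1 lowest and DMSO replicate 1 highest. The fold of daidzein over DMSO was 0.426, with a 95% interval of 0.325 to 0.560.

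The remaining Fos family genes had folds near 1, with intervals that include 1. Fosl2 had 599 and 667 reads with daidzein and 609 and 652 with DMSO, or 34.8 and 36.0 CPM with daidzein and 37.5 and 38.1 CPM with DMSO, a fold of 0.937 (0.828 to 1.06). Fosl1 had 88 and 87 reads with daidzein and 86 and 80 with DMSO, or 5.12 and 4.69 CPM with daidzein and 5.30 and 4.67 CPM with DMSO, a fold of 0.984 (0.740 to 1.31). Ccdc85b lies on the opposite strand over 2767 bases of the Fosl1 gene and had 740 to 752 reads per library, and the strand setting of the counting is not given, so the Fosl1 count is uncertain. The log2 difference of Fosl1, -0.02, became 0.075 with DMSO replicate 1 left out and 0.050 with daidzein replicate 2 left out.

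Among the Jun genes, Junb was the member with the lowest fold. Junb, which can restrain the activity of Jun, lies on chromosome 8 at 84976910 to 84978718 (minus strand) and had 1391 and 1637 reads with daidzein and 1778 and 1725 with DMSO. This is 80.9 and 88.3 CPM with daidzein and 110 and 101 CPM with DMSO, and the groups did not overlap. Its fold was 0.805, with an interval of 0.727 to 0.891, but it was not among the genes called over the whole table. Leaving out 1 library moved its log2 difference, -0.31, to between -0.38 and -0.25, and with DMSO replicate 2 left out Junb was called. Junb was also called without the filter on low counts, where 0.0562% of genes were, and with the replicate number as a term in the fit, where 0.231% were.

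Jund, on chromosome 8 at 70698949 to 70700616 (plus strand), had 1837 and 1988 reads with daidzein and 2082 and 1852 with DMSO, which is 107 and 107 CPM with daidzein and 128 and 108 CPM with DMSO. DMSO replicate 1 stood apart, and the other 3 libraries lay within 107 to 108 CPM. The fold of Jund was 0.906, with an interval of 0.812 to 1.01, and its log2 difference, -0.14, shrank to -0.01 once DMSO replicate 1 was left out. An antisense gene inside Jund, Gm11175, had 0 reads.

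Jun, the gene of c-Jun, lies on chromosome 4 at 95049034 to 95052222 (minus strand) and had 333 and 406 reads with daidzein and 462 and 316 with DMSO. This is 19.4 and 21.9 CPM with daidzein and 28.5 and 18.5 CPM with DMSO, so DMSO held both the highest and the lowest library. The fold was 0.882, with an interval of 0.711 to 1.09. The log2 difference of Jun, -0.18, became 0.17 when DMSO replicate 1 was dropped and -0.47 when DMSO replicate 2 was, so its direction rested on which DMSO library was used. Junos, an antisense gene that shares 689 bases with Jun, had 8 and 15 reads with daidzein and 3 and 16 with DMSO.

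**Figure D2:**
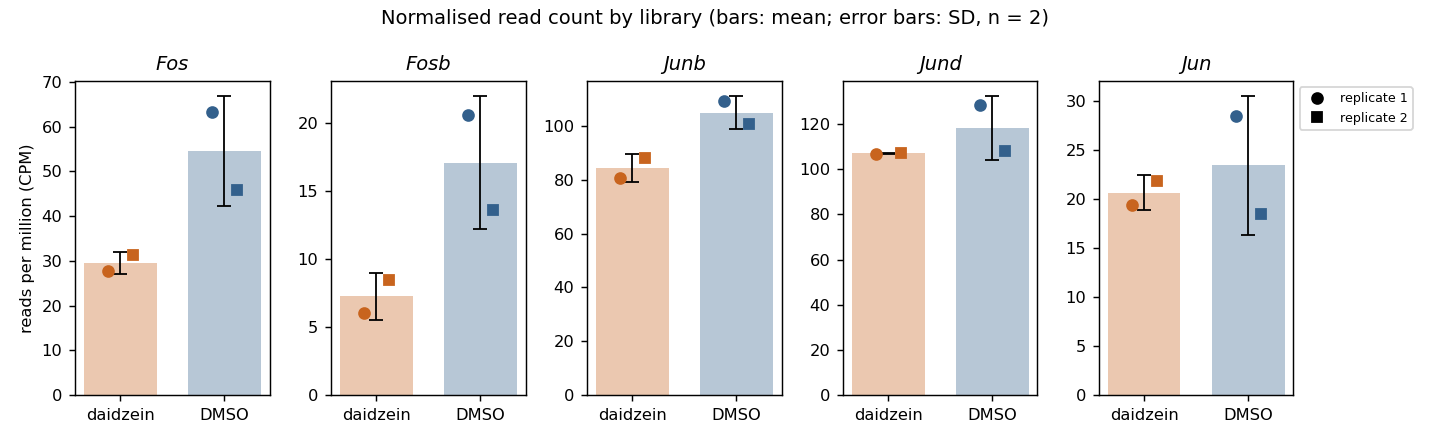
Normalised read count in CPM of Fos, Fosb, Junb, Jund and Jun, with daidzein left of DMSO, bars at the mean, error bars of 1 SD (n = 2) and a point for each library; each panel has its own axis from 0. Daidzein libraries lie below DMSO libraries for Fos, Fosb and Junb, while for Jun the DMSO libraries, at 28.5 and 18.5 CPM, enclose the daidzein libraries.

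Of the other relatives, Batf had 447 and 443 reads with daidzein and 428 and 449 with DMSO, or 26.0 and 23.9 CPM with daidzein and 26.4 and 26.2 CPM with DMSO. Its fold was 0.948, with an interval of 0.821 to 1.10. Batf3 was the only tested member with a fold above 1, at 1.25 with an interval of 0.821 to 1.91, from 39 and 62 reads with daidzein and 42 and 33 with DMSO. This is 2.27 and 3.35 CPM with daidzein and 2.59 and 1.93 CPM with DMSO. The Batf3 groups overlapped, and its log2 difference of 0.32 ranged between 0.02, with daidzein replicate 2 left out, and 0.56, with daidzein replicate 1 left out. It was 0.55 and 0.12 with DMSO replicate 1 and DMSO replicate 2 left out.

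Atf3, a stress-induced repressor and partner of Jun, had 7 and 1 reads with daidzein and 11 and 2 with DMSO and was too low to test. Replicate 1 was above replicate 2 in both groups. The ratio of pooled reads per depth, daidzein over DMSO, was 0.574 with an exact binomial 95% interval of 0.206 to 1.495, which covers counting error only. The ratio became 1.92 when DMSO replicate 1 was left out and 0.138 when daidzein replicate 1 was. No difference in Atf3 was detectable at this depth.

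Fos and Fosb were the 2 members called of 9 tested, at an adjusted p of 0.05 by edgeR's quasi-likelihood test, adjusted by Benjamini-Hochberg over 11700 genes. Of all genes tested 0.0171% were called, and since the family was chosen for these 2 calls nothing is read from the share. Both fell with daidzein. By limma on log2(FPKM + 1) neither was called (adjusted p = 0.450 in Fos, adjusted p = 0.787 in Fosb), and edgeR with a stricter filter on low counts did not call Fosb, with an adjusted p of 0.0722. At an unadjusted p under 0.05 there were 3 members, Junb being added, where 2.91% of all tested genes passed. In 6 of the 10 members both daidzein libraries lay below both DMSO libraries, as in 15.2% of all genes tested, but in Fosl2, Jund and Batf the gap was small. Of the 9 tested, 8 had a fold below 1 and 1 above, against 6003 below and 5697 above of all 11700 genes tested. The median log2 difference of the tested members was -0.14, and that of all tested genes was -0.00. With 2 libraries against 2, an exact two-sided permutation test of any single gene cannot go below 0.333, so each call borrows its error from other genes.

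**Figure D3:**
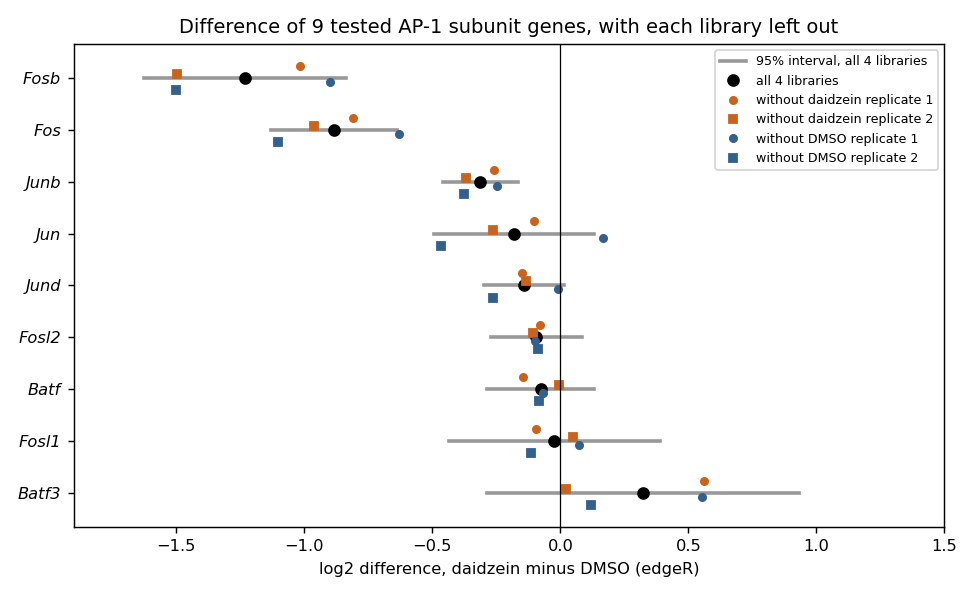
Log2 difference, daidzein minus DMSO, of the 9 tested genes from edgeR's fit, with grey bars for the 95% interval over all 4 libraries and coloured points for the value with each library left out. Fosb and Fos stay at -0.63 or below in every case, whereas Jun is at 0.17 without DMSO replicate 1.

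Libraries of the same group differed in Fos more than they did in most genes of its level. In the DMSO group replicate 1 exceeded replicate 2 by a ratio of 1.38 for Fos, with a counting interval of 1.26 to 1.51, of 1.51 for Fosb (1.27 to 1.79) and of 1.54 for Jun (1.33 to 1.79). In the daidzein group the ratio of replicate 1 to replicate 2 was 0.889 for Fos (0.786 to 1.005), 0.707 for Fosb (0.546 to 0.913) and 0.884 for Jun (0.763 to 1.03). Fos, Fosb and Jun thus varied within the DMSO group beyond counting error, as Fosb and Junb did within the daidzein group and Junb and Jund within the DMSO group, while Fosl2 and Batf had ratios between 0.968 and 1.09 in both groups. DMSO replicate 1 held the highest CPM of 8 of the 10 members, against 26.6% of all tested genes, and daidzein replicate 1 the lowest of 5, against 28.5%. DESeq2 measures this spread as a dispersion per gene, which was 0.0284 for Fos, 5.15 times the trend for genes of its level. It was 5.22 times the trend for Jun, 4.22 times for Fosb, 2.27 times for Jund and 0.877 times for Junb. Fos and Jun were among 63 of 11700 genes, 0.538%, whose spread DESeq2 took as too far above the trend to be moderated. On the 11700 filtered genes DESeq2 called Fosb and did not call Fos, and over every gene with a read it called both.

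**Figure D4:**
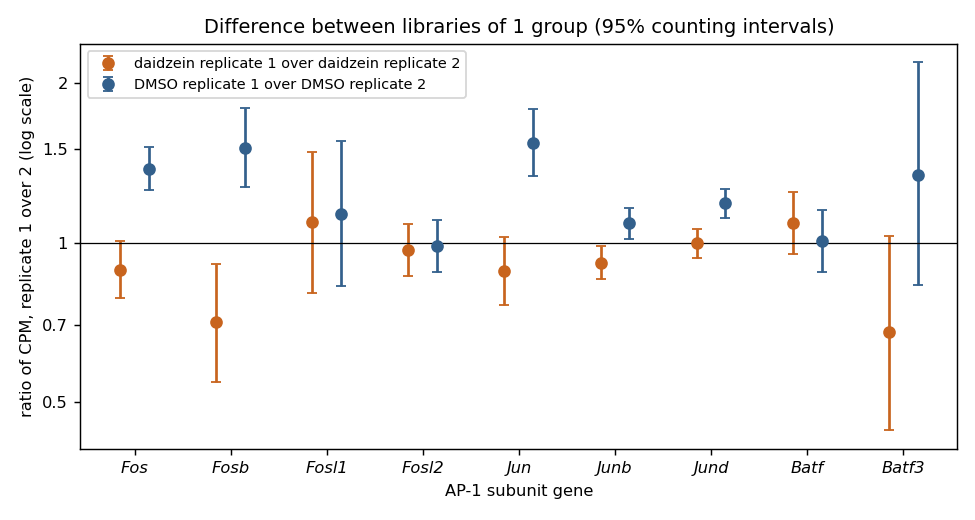
Ratio of CPM between replicate 1 and replicate 2 of the same group on a log axis, with 95% exact binomial intervals that cover counting error only; daidzein is left of DMSO for each gene and Atf3 is left out for its few reads. The DMSO ratios of Fos, Fosb and Jun lie between 1.38 and 1.54, while those of Fosl2 and Batf lie near 1.

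Measured within a library, the make-up of the AP-1 transcripts is free of library scaling. Fos and Fosb together made up 8.31% and 9.17% of the summed FPKM of the 10 genes with daidzein and 14.8% and 12.5% with DMSO. The group means were 8.74 ± 0.614% with daidzein and 13.6 ± 1.67% with DMSO (SD, n = 2 each). Jund took 41.6% and 40.2% with daidzein and 37.7% and 37.2% with DMSO, and Junb between 29.1% and 32.0% in all libraries. The sum itself was lower with daidzein, at 153.9 and 159.8 FPKM, against 203.8 and 174.2 FPKM with DMSO. Jund's own FPKM was not higher with daidzein, so its larger share there is not a rise in level.

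Fos family transcripts were outnumbered by those of the Jun family in every library. The ratio of summed FPKM, Fos family over Jun family, was 0.165 and 0.172 with daidzein and 0.251 and 0.221 with DMSO. The deposited length is 1.09 to 1.65 times the longest coding transcript in the Fos family genes but equal to it in Jun, Junb and Jund. This ratio and the share of Fos and Fosb therefore depend on the length used. Fos supplied 62.5% and 64.3% of the Fos family sum with daidzein and 73.3% and 69.9% with DMSO. The ratio of Fosb to Fos was 0.0812 and 0.102 with daidzein and 0.122 and 0.112 with DMSO. The ratio of Junb to Jund was 0.698 and 0.759 with daidzein and 0.787 and 0.859 with DMSO. All of these are descriptions of the same contrast that chose the genes.

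**Figure D5:**
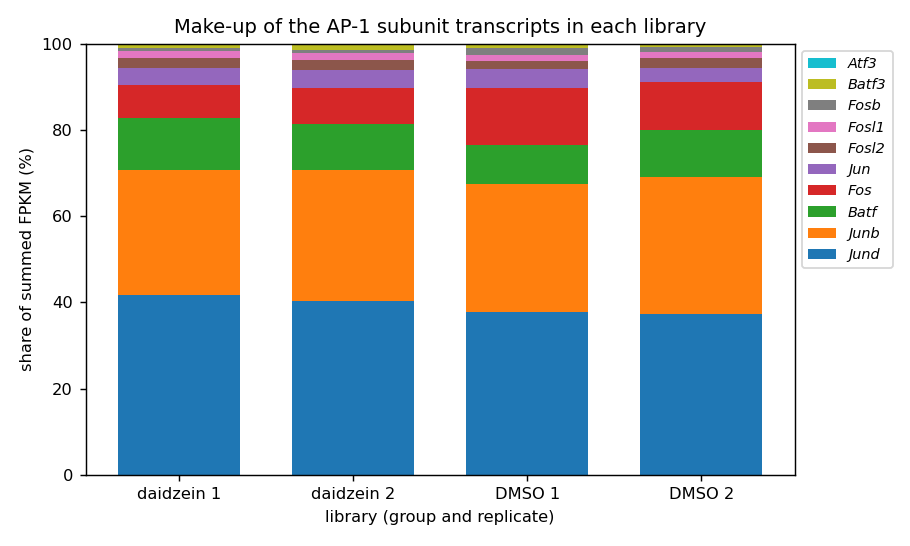
Share in percent of each subunit in the summed FPKM of the 10 genes, stacked to 100% for each library, daidzein libraries left of DMSO libraries. The Fos band, 7.68% and 8.32% high with daidzein and 13.2% and 11.2% with DMSO, is narrower with daidzein, and Jund and Junb form the largest bands of each bar.

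Genes that work with AP-1 were taken from 6 lists, and 0 of their 58 tested genes were called, in either direction, against 0.0171% of all tested genes. By edgeR 1 of the 58 had an unadjusted p under 0.05, and DESeq2 also called 0. Together 24 had a fold above 1 and 34 below, between 0.735 and 1.12, with a median log2 difference of -0.02. All tested genes divided into 5697 above 1 and 6003 below.

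The nearest relatives and dimer partners had folds near 1. Of 13, 8 were tested, 4 with a fold above 1 and 4 below, with a median log2 difference of 0.00. Atf2, which pairs with Jun, stood at 66.1 and 64.4 CPM with daidzein and at 59.9 and 60.4 CPM with DMSO, a fold of 1.09 (0.978 to 1.20). Jdp2, a repressor that pairs with Jun proteins, had a fold of 1.12 (0.897 to 1.40), Atf4 of 0.962 (0.893 to 1.04) and the small Maf gene Mafg of 0.957 (0.859 to 1.07). Batf2 and Maf had 0 reads in every library.

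Of 14 transcription factors that act on the Fos and Jun promoters, 13 were tested, none was called, and Mef2c had 0 reads in every library. Srf, the serum response factor, stood at 90.2 and 86.3 CPM with daidzein and at 93.5 and 91.2 CPM with DMSO, a fold of 0.955 (0.868 to 1.05). Creb1, which binds cAMP response elements, had a fold of 1.04 (0.932 to 1.16), its relatives Atf1 of 0.963 (0.878 to 1.06) and Crem of 1.08 (0.870 to 1.34). Of the 13, 7 had a fold above 1 and 6 below.

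The kinases that relay growth and stress signals to AP-1 lay between folds of 0.932 and 1.08. Map2k4, which activates the Jun kinases, had a fold of 1.08 (0.981 to 1.19), the p38 kinase gene Mapk14 of 0.944 (0.874 to 1.02), the Jun kinase gene Mapk9 of 0.932 (0.835 to 1.04) and Map2k1, which activates ERK, of 1.06 (0.960 to 1.17). Of 13 tested, 6 were above 1 and 7 below. Transcript levels do not measure kinase activity.

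Among 8 binders of AU-rich elements, 2 had a fold above 1 and 6 below, with a median log2 difference of -0.05. Zfp36, which encodes tristetraprolin, a protein that speeds the decay of such messages and is itself an early response gene, was the gene with an unadjusted p under 0.05. It stood at 8.20 and 7.01 CPM with daidzein and at 10.7 and 9.17 CPM with DMSO, a fold of 0.765 (0.606 to 0.964) and an edgeR adjusted p of 1.00. Zfp36l2 had a fold of 0.930 (0.851 to 1.02), Elavl1, the gene of the stabilising protein HuR, of 0.963 (0.878 to 1.06) and Tial1 of 1.04 (0.936 to 1.15). The 4 genes for ubiquitin ligase parts that act on Jun, Fbxw7, Itch, Cop1 and Det1, had folds from 0.966 to 1.08.

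Of 23 known AP-1 target genes, 12 had enough reads to test, 2 with a fold above 1 and 10 below, and a median log2 difference of -0.06. Among all tested genes 5697 were above 1 and 6003 below, and none of the 12 was called. Plau, the gene of urokinase, stood at 12.7 and 12.6 CPM with daidzein and at 13.9 and 14.0 CPM with DMSO, a fold of 0.905 (0.753 to 1.09). Its receptor gene Plaur had a fold of 0.938 (0.824 to 1.07), the adhesion gene Cd44 of 0.961 (0.877 to 1.05) and Timp1, an inhibitor of metalloproteinases with few reads, of 0.735 (0.365 to 1.48). Mmp3, Mmp10 and Il2 had 0 reads throughout, so the list covers the known targets only in part.

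Over the 4 libraries the tested genes whose profile was most like that of Fos were mostly low in reads. Likeness was the root mean square difference of log2 CPM after centring each gene, over 9691 genes with at least 1 FPKM in every library. The 5 nearest were Tubb4a, a tubulin gene, at 0.16, Rhoc, a small GTPase gene, at 0.18, Mrpl53, a mitochondrial ribosomal protein gene, at 0.19, Gm50464 at 0.19 and the pseudogene Mrps36-ps2 at 0.20. Tubb4a stood at 2.27 and 2.59 CPM with daidzein and at 4.07 and 3.27 CPM with DMSO. Fosb was left out of the search because daidzein replicate 1 was below 1 FPKM. At 0.21 from Fos it lay further away than the 5 named genes, while Junb was at 0.30, Jun at 0.36 and Jund at 0.38. None of the 5 was called.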

How the data were processed

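RNA sequencing of 4 libraries was used, grouped by their titles. Per the submitters' processing notes the tools were DESeq2, HTSeq 0.6.1 and HISAT2 2.0.1, and the build named is mm9, without further detail, but 99.61% of 55141 genes matched by identifier had the GENCODE M21 start on GRCm38, as did 9 of the 10 members in both start and end, Junb differing. The authors deposited raw counts of reads for each gene, whole numbers by their values, and FPKM, which equal the count scaled to exonic length and library total within 0.01. Neither the strand setting nor the counting options are stated.

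The main test was that of edgeR 4.0.16, run in R 4.3.3 (quasi-likelihood F test, TMM, filterByExpr) at a Benjamini-Hochberg adjusted p of 0.05, after a test on simulated data. CPM are scaled to library totals. Folds and their 95% intervals come from that fit. Alternatives used limma 3.58.1 and DESeq2 1.42.0. Library pairs differed by 2.23 to 4.81 in chi-square per degree of freedom, so none was a duplicate.

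The members and lists were chosen with earlier results of these data known. Named genes are the members, up to 4 genes of each list with the smallest p, the 5 genes most like Fos, and genes overlapping a member. Genes named for having 0 reads were chosen after their values were seen. Protein sequences were not used here, and 1 listed gene is not reported here. Promoters are from RefSeq on GRCm38.p6, transcripts from GENCODE M21.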

Additional observations from a re-analysis of the deposited data

How the results depend on the processing

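The count of genes called, 2, and that of members called, 2 (Fos and Fosb), was the same with DESeq2 size factors, library totals alone and robust estimation. A prior count of 0.5 was applied only to the folds and not to the p-values, so the calls could not differ there. Without a filter on low counts edgeR called 11 genes, the members among them being Fos, Fosb and Junb. DESeq2 called 1 gene, the member Fosb, on the filtered genes, and 2, Fos and Fosb, without a filter, an alternative chosen after seeing the data, like the use of transcript lengths. With the stricter filter 1 gene, the member Fos, was called. By limma on log2(FPKM + 1) 0 genes and 0 members were called (379 genes and 3 members at an unadjusted p under 0.05), with a pseudocount of 0.1 it was 1 gene, Mir5125, and 0 members, and without a filter 0 and 0. Leaving out 1 library gave 4 to 17 genes and 2 to 3 members, always with Fos and Fosb. The fewest were called with DMSO replicate 1 left out, and 12, 11 and 17 with DMSO replicate 2, daidzein replicate 1 and daidzein replicate 2 left out. There the lone library is assumed to vary like the other group. With the replicate number as a block 27 genes and 3 members were called, Junb being the third. No label says that a number marks a shared culture, so this block is not read as a pairing. With only 2 pairs, the deviations of libraries sharing a number correlated at 0.09 across genes. Counting error lowers such a correlation, so it cannot settle whether the numbers mark pairs. Libraries sharing a number were nonetheless the most alike of the 6 pairs, at a chi-square per degree of freedom of 3.51 and 2.23, against 4.38 within daidzein and 4.17 within DMSO. The count of list genes called, 0, was 0 in every setting. The log2 difference of Fos ran from -1.10 to -0.63 and that of Fosb from -1.50 to -0.90 when each library was dropped in turn. That of Fosl1, -0.02, ran from -0.12 to 0.075 and that of Jun, -0.18, from -0.47 to 0.17, so both reversed in sign. The share of Fos and Fosb, with a difference of -4.90 percentage points, came to -6.66 from raw counts and to between -6.08 and -3.72 over the fits that drop a library. The difference in the ratio of the Fos to the Jun family, -0.07, was -0.10 from raw counts and ran from -0.08 to -0.05. Apart from the DESeq2 case, where the spread of Fos was not moderated, the cause was not tested. Depth limits Atf3 most, then Batf3 and Fosl1.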
